A study of Mus musculus with 11 samples.

Results

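Receptors for monoamines and acetylcholine were examined across 4 regions of the adult mouse brain in FACS-isolated Aldh1l1-eGFP astrocytes. The genes were chosen by their symbols, taking every adrenoceptor, dopamine, serotonin, histamine, muscarinic and nicotinic receptor gene listed, which gave 53 of the 24421 entries in each sample. The samples came from 16-week-old C57BL/6 mice carrying a BAC transgene in which eGFP follows the Aldh1l1 promoter, a promoter active in astrocytes. Sorted GFP-positive cells gave 3 samples of olfactory bulb (OB), 3 of hippocampus (HC), 2 of cortex (CX) and 3 of brainstem (BS), and no sample carried any other allele or treatment. Mice of both sexes were used in the study, and the labels do not say whether replicates came from separate animals, so p-values measure only the spread between these samples.

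Monoamines and acetylcholine reach astrocytes mostly by diffusion from the axons of small nuclei such as the locus coeruleus (noradrenaline), the raphe (serotonin) and the basal forebrain (acetylcholine). Alpha-1 adrenoceptors and the Htr2, Hrh1 and odd-numbered muscarinic receptors act through Gq to release calcium from internal stores, the best described astrocyte response to noradrenaline. Beta adrenoceptors, Htr4, Htr6, Htr7 and Hrh2 raise cyclic AMP through Gs, alpha-2 adrenoceptors, Htr1 receptors and the remaining muscarinic receptors act through Gi/o, and nicotinic receptors and Htr3 are ion channels built from 5 subunits.

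Values are read counts divided by a size factor for each sample. The reads counted to genes, as recovered from these values, ran from 2830746 to 14151670 per sample with a median of 5552215. They are not the full sequenced depth. A single read was worth 0.367 units in the deepest sample (HC 3) and 2.10 units in the shallowest (BS 3). Aldh1l1 itself lay between 542 and 1317 in all samples (adjusted p = 0.336 among regions). The summed level of 10 astrocyte markers ran from 275949 to 327041 in OB, 298146 to 501935 in HC, 604168 to 679319 in CX and 106147 to 302764 in BS, where Slc1a3 and Glul were lower. RNA of other cells was present as well. The summed level of 12 neuronal markers ran from 2309 to 4016 in OB, 1542 to 2758 in HC, 2599 to 3372 in CX and 3161 to 4077 in BS, and that of 8 oligodendrocyte markers from 9501 to 15788 in OB and from 52260 to 89909 in BS. The 45S ribosomal transcript Rn45s took 0.966 to 2.93% of reads in OB and HC samples and 17.96 to 25.65% in CX and BS samples. In bulk samples such as these, fewer cells of a type and less RNA per cell cannot be told apart.

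Of the 53 receptor genes, 28 had enough reads to be tested and 25 did not. Only 8 reached 3 reads in every sample: Adra1a, Adra2a, Chrna4, Chrna7, Chrnb1, Chrnb2, Hrh1 and Htr2c. Drd4, Chrng, Chrnd, Chrna9, Hrh4 and Htr3b had no read in any sample, and the other 19 untested genes had 1 to 69 reads over all samples and no value above 24.0. A gene could pass the filter on the strength of the region in which it was high, so the counts below describe the tested genes and not the whole family. Per kb of exon, high mean levels over all samples were those of Htr2c (48.6), Adra2a (17.8), Adra1a (16.6), Hrh1 (13.0), Chrnb4 (8.02), Adrb1 (6.76), Chrnb1 (6.45), Chrna4 (6.29) and Htr6 (4.37).

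**Figure D1:**
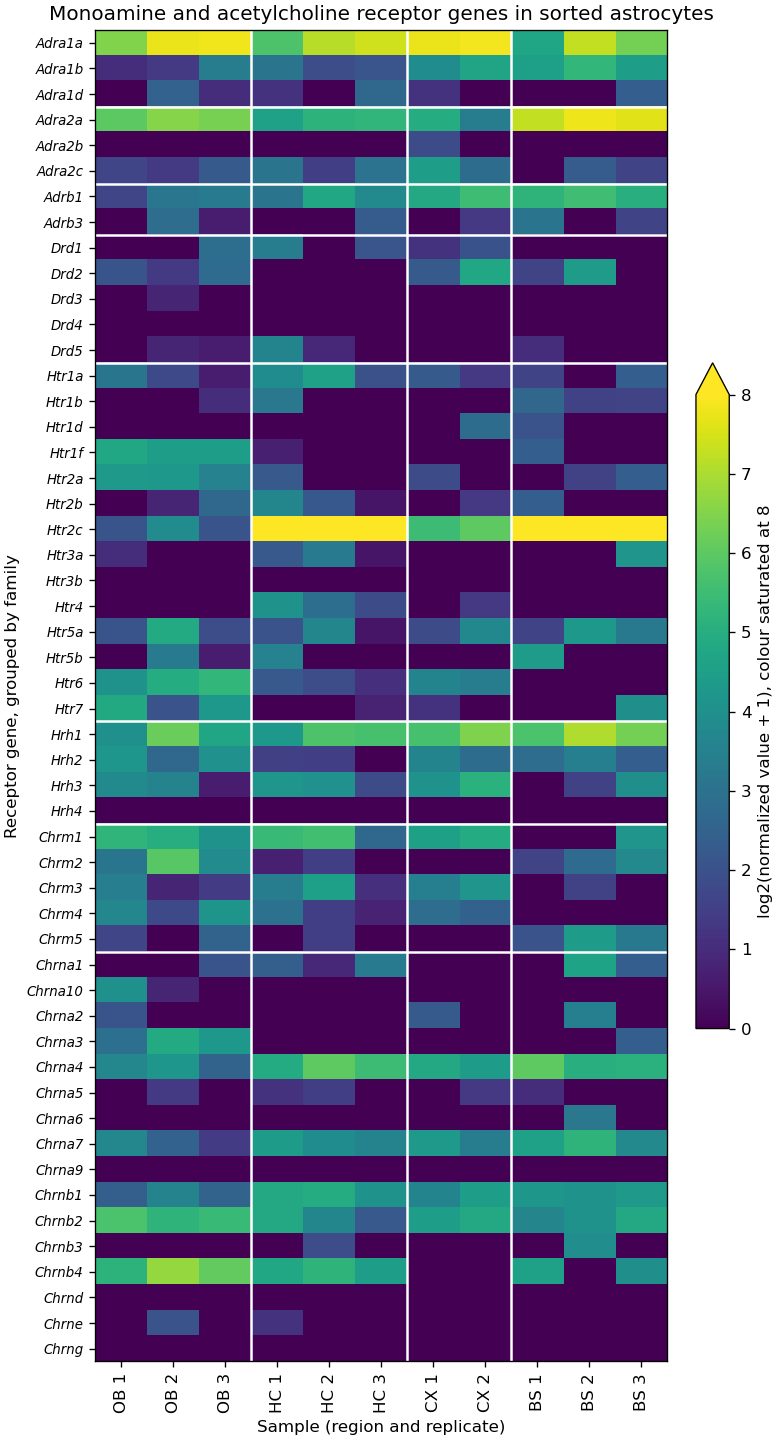
Heat map of log2(normalized value + 1) for receptor genes (rows, grouped by family with white lines) in the 11 samples (columns, grouped by region), with colour saturated at 8. Adra1a, Adra2a and Hrh1 are filled in all columns, Htr2c is saturated in the HC and BS columns, and most other rows are dark in at least 1 sample.

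The 4 regions were compared in a limma fit to log2(value + 1) over all 13875 genes tested. An F-test found 9 of the 28 tested receptor genes to differ among regions at an adjusted p under 0.05, beside 16.5% of all genes tested. These were Htr2c, Adra2a, Htr6, Chrnb4, Htr1f, Chrm2, Chrna3, Adrb1 and Adra1b, which are 3 serotonin receptors, 3 adrenoceptors, 2 nicotinic subunits and 1 muscarinic receptor. No dopamine or histamine receptor was among them. Between pairs of regions, 15% of all genes passed an adjusted p of 0.05 for OB against BS, 10.9% for CX against BS, 7.11% for OB against HC, 4.91% for OB against CX, 4.63% for HC against BS and 1.23% for HC against CX, and these shares stand behind every pairwise adjusted p given for a receptor.

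**Figure D2:**
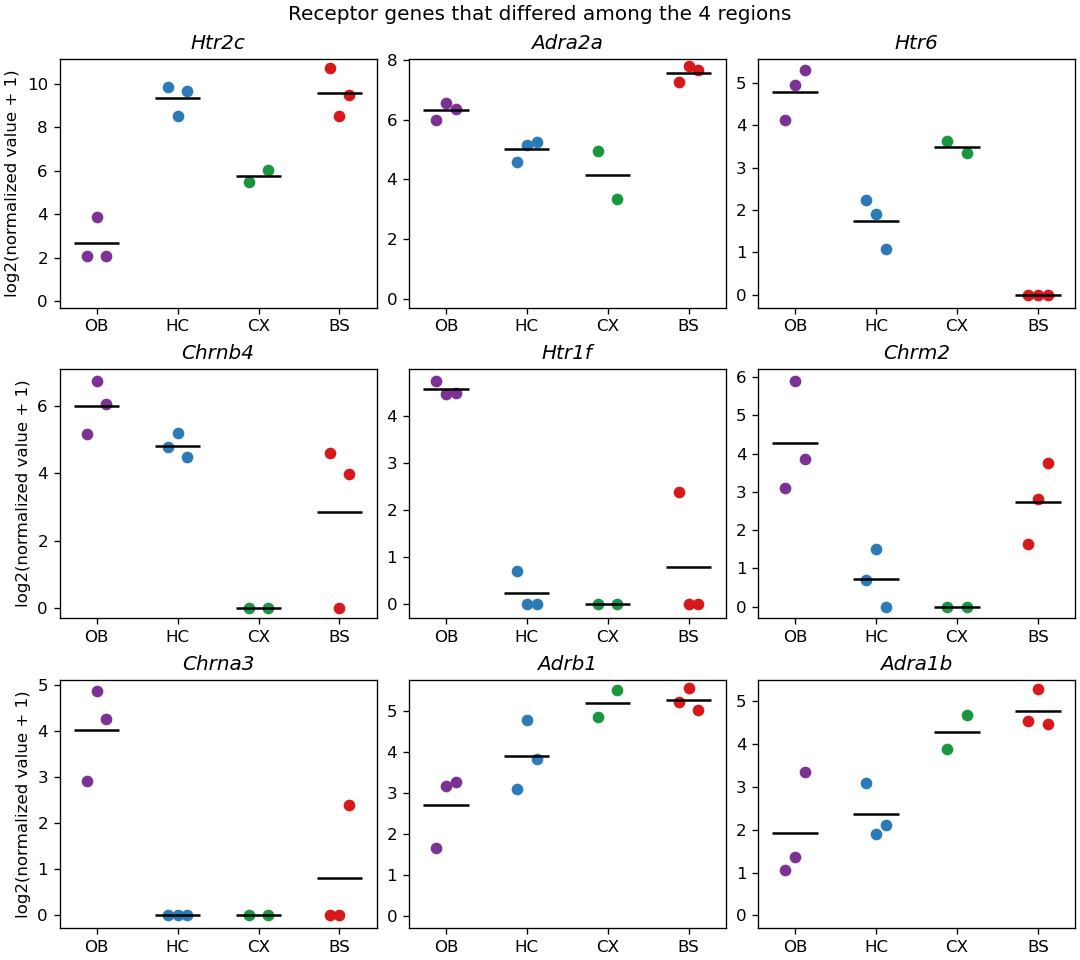
log2(normalized value + 1) of the 9 receptor genes that differed among the 4 regions, with 1 point per sample, a black line at the mean of each region and a separate vertical scale for each gene. Htr2c is low in OB, Adra2a is highest in BS, Htr1f and Chrna3 stand up in OB, Htr6 lies at 0 in all 3 BS samples and Chrnb4 at 0 in both CX samples.

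For 4 of these genes, the upstream window is shown 5′ to 3′ on the gene's strand, since these stretches precede genes whose levels differed. They are those with a single RefSeq start site whose upstream 250 bases lie outside the annotated gene. The bases after the window were found in a GENCODE M21 transcript for Htr2c, Chrm2 and Chrna3 but not for Adrb1. The Adrb1 window ends before the annotated gene start at 56722199. Capitals mark matches on either strand to TTGGC (a half-site of NFI factors, which are central to astrocyte development), TGACG (a cyclic AMP response element half-site), TATAAA or TAATCC (the core bound by OTX factors). The windows lie in GRCm38.p6 at chrX:146962263-146962512 (plus strand, Htr2c), chr6:36387834-36388083 (plus, Chrm2), chr9:55026563-55026812 (minus, Chrna3) and chr19:56721867-56722116 (plus, Adrb1).
Htr2c: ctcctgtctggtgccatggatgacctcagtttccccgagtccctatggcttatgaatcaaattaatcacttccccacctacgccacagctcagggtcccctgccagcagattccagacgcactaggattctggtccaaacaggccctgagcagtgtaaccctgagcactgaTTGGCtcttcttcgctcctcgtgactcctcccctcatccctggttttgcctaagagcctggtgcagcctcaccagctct
Chrm2: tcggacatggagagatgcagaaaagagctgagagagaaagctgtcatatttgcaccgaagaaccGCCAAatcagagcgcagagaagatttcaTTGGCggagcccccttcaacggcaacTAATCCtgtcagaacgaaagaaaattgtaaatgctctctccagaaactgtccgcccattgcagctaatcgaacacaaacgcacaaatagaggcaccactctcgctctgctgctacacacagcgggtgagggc
Chrna3: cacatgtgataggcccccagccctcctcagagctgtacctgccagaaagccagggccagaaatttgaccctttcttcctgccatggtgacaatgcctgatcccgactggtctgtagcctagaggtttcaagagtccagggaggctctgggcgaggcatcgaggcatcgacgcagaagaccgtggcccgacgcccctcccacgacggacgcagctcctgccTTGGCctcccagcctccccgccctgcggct
Adrb1: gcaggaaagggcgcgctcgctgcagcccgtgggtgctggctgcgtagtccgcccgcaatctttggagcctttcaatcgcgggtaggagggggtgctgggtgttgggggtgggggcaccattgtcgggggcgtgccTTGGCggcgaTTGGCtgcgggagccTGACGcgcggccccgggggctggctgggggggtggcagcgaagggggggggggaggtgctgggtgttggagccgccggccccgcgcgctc
TTGGC occurred in all 4 windows, TAATCC in that of Chrm2 and TGACG in that of Adrb1. Over all 32851 upstream windows of this length, 41.51% held TTGGC, 17.77% TGACG, 12.37% TATAAA and 6.252% TAATCC. Of the 49 windows of the 40 receptor genes with a window, 28 held TTGGC, 6 TGACG, 2 TATAAA and 3 TAATCC. A match describes the letters only.

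Among the alpha-1 adrenoceptors, the Gq-coupled receptors for noradrenaline, Adra1a was read in every sample. Its value was 88.0, 215 and 225 in OB, 53.1, 139 and 172 in HC, 215 and 230.0 in CX and 25.2, 152 and 80.0 in BS. The samples of OB, HC and BS overlapped and CX lay at the top of their range, and the F-test did not pass (adjusted p = 0.217). With a replicate block the F-test of Adra1a passed (adjusted p = 0.0218). Adra1b (chr11:43774606-43901210, minus strand) read 1.09, 1.58 and 9.16 in OB, 7.496, 2.74 and 3.30 in HC, 13.8 and 24.5 in CX and 22.1, 38.1 and 21.05 in BS. All 5 CX and BS samples lay above all 6 OB and HC samples (F-test adjusted p = 0.0359), and the pair that passed was OB against BS, with a log2 difference, OB minus BS, of -2.84 ± 0.76 (SE, adjusted p = 0.0188). The Adra1b F-test call was lost in 9 of the 11 fits that left out 1 sample, all but those without HC 1 or OB 3, where its adjusted p reached 0.0850, in edgeR, where it reached 0.0985, with a pseudocount of 0.25 and without the low-value filter. A replicate block also ended the Adra1b call. The split of CX and BS from OB and HC samples also separated Rn45s, at 0.966 to 2.93% of reads in OB and HC and 17.96 to 25.65% in CX and BS. The part of Rn45s in the Adra1b difference was not tested.

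The make-up of the alpha-1 family also varied between regions. Per kb of exon, Adra1a made up 88.7 to 96.9% of the alpha-1 level in OB samples, 67.9 to 95.2% in HC, 78.4 to 83.8% in CX and 30.7 to 60.8% in BS. Adra1b held 1.69 to 9.33% in OB and 35.4 to 69.3% in BS. The share of Adra1a was lower in each BS sample than in any sample of another region. Adra1d, the remaining subtype, had 28 reads in all and was not tested.

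The alpha-2 adrenoceptors couple to Gi/o, and Adra2a was by far their most read member. Adra2a (chr19:54044151-54048982, plus strand) read 63.0, 93.2 and 80.8 in OB, 23.1, 34.7 and 37.1 in HC, 30.2 and 9.20 in CX and 152, 222 and 199.95 in BS. All 3 BS samples lay above all others, and all 3 OB samples above all HC and CX samples. Means were 192 ± 35.7 in BS (SD, n = 3), 79.0 ± 15.2 in OB (SD, n = 3), 31.6 ± 7.47 in HC (SD, n = 3) and 19.7 ± 14.8 in CX (SD, n = 2). Adra2a differed among regions (adjusted p = 0.000351). The log2 difference was -2.57 ± 0.42 for HC minus BS (SE, adjusted p = 0.00158), -3.42 ± 0.47 for CX minus BS (adjusted p = 0.000253) and 2.15 ± 0.47 for OB minus CX (adjusted p = 0.0135). BS against OB (adjusted p = 0.0545), OB against HC (0.0808) and HC against CX (0.505) did not pass. Adra2c was untested, with values of 21.4 and 6.13 in CX and at most 7.496 elsewhere. Per kb it made up 47.4 to 48.3% of the alpha-2 level in CX but 0 to 2.46% in BS. The CX shares rest on few reads, 17 of Adra2c beside 24 of Adra2a in CX 1 and 4 beside 6 in CX 2. Adra2b had 2 reads.

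**Figure D3:**
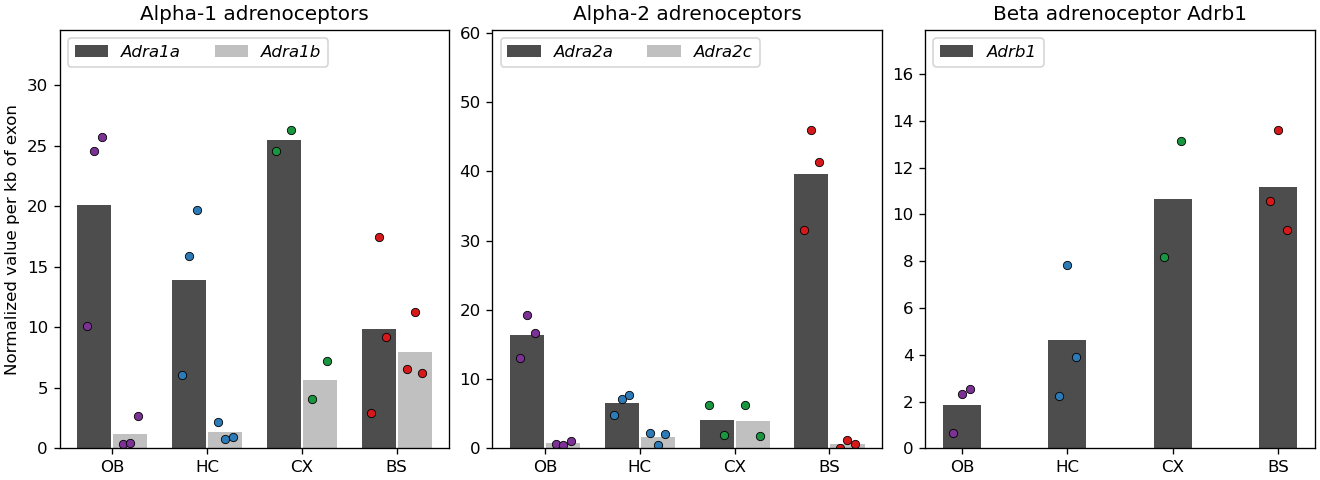
Normalized value per kb of exon of adrenoceptor subtypes by region, with bars at the mean from 0 and 1 point per sample. Adra2a bars are tallest in BS, the Adra1b bar comes close to the Adra1a bar only in BS, and Adrb1 bars are taller in CX and BS than in OB and HC.

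Among the beta adrenoceptors, which raise cyclic AMP, Adrb1 (chr19:56722199-56733113, plus strand) read 2.17, 7.89 and 8.62 in OB, 7.496, 26.5 and 13.2 in HC, 27.6 and 44.5 in CX and 35.7, 46.1 and 31.6 in BS. All CX and BS samples lay above all OB and HC samples, while OB and HC overlapped. Adrb1 differed among regions (adjusted p = 0.0291) and was lower in OB than in BS, with a log2 difference, OB minus BS, of -2.57 ± 0.63 (SE, adjusted p = 0.0120), but the F-test call was lost without BS 1, BS 3, CX 1, CX 2 or OB 1, with adjusted p up to 0.09997, in edgeR, with adjusted p up to 0.0640, and without the low-value filter. Adrb1 followed the same split of samples as Rn45s (at most 2.93% of reads in OB and HC, at least 17.96% in CX and BS), whose part in the difference was not tested. Adrb3 had 29 reads and was not tested.

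Serotonin receptors included the gene with the highest mean level per kb and the lowest F-test p of the tested receptors. Htr2c (chrX:146962513-147197277, plus strand), the Gq-coupled receptor that is very abundant in choroid plexus epithelium, read 3.26, 13.4 and 3.23 in OB, 919, 363 and 824 in HC, 44.0 and 64.4 in CX and 1674, 365 and 711 in BS. Every CX sample lay above every OB sample and below every HC and BS sample, and HC and BS overlapped. Htr2c differed among regions (adjusted p = 1.43e-06). The log2 difference of OB was -6.67 ± 0.55 from HC (SE, adjusted p = 2.54e-06), -6.89 ± 0.55 from BS (adjusted p = 9.15e-07) and -3.09 ± 0.62 from CX (adjusted p = 0.00782), and CX was lower than HC (adjusted p = 0.00883) and BS (adjusted p = 0.000964). HC and BS differed by a log2 difference of -0.22 ± 0.55 (HC minus BS, adjusted p = 0.905).

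Most markers of choroid plexus moved with Htr2c. Ttr, the transthyretin gene of that epithelium, read 5.39 to 16.6 in OB, 65549 to 132046 in HC, 1323 to 4204 in CX and 46376 to 221911 in BS. The summed level of 10 choroid plexus markers ran from 222 to 310.3 in OB, 72353 to 146799 in HC, 1783 to 5061 in CX and 52396 to 247366 in BS. All 10 differed among regions, 9 of them were lower in OB than in the other regions, and Folr1 had no read in any OB sample. Aqp1 went another way, at 135 to 209 in OB, 89.5 to 234 in HC, 2.51 and 6.13 in CX and 108 to 399 in BS. It made up most of the summed level in each OB sample. Per 1000 units of Ttr, Htr2c held 5.53 to 6.96 units in HC and 6.57 to 7.86 in BS, against 10.5 and 48.7 in CX and 500 to 810 in OB, where Ttr was itself close to 0. The part of choroid plexus RNA in the Htr2c difference was not tested.

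**Figure D4:**
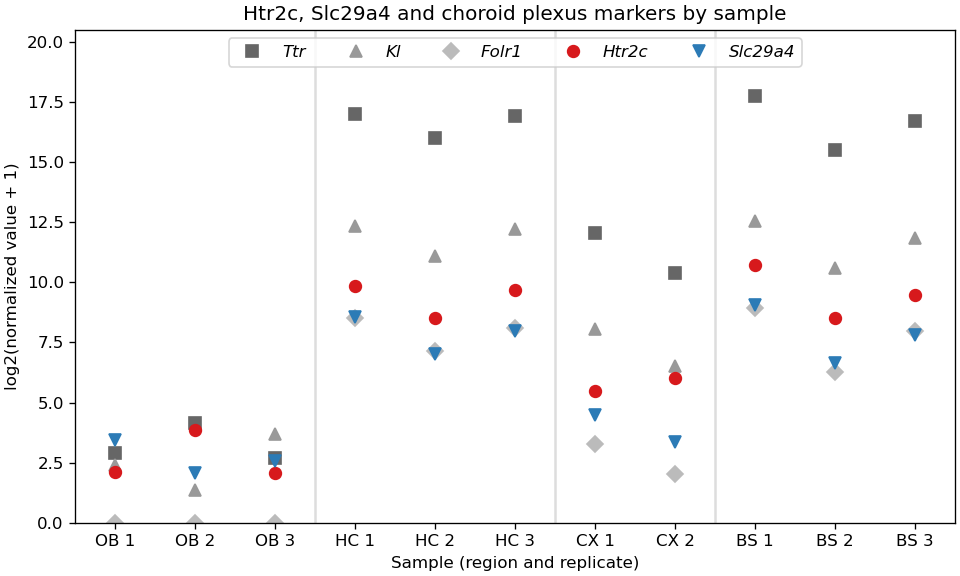
log2(normalized value + 1) of Htr2c, of the monoamine transporter gene Slc29a4 and of the choroid plexus markers Ttr, Kl and Folr1 in each of the 11 samples. All 5 genes lie highest in HC and BS samples, and within HC and BS the order of the samples is shared by Htr2c and Ttr.

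Htr6, a Gs-coupled receptor, read 16.3, 30.0 and 38.2 in OB, 3.75, 2.74 and 1.10 in HC, 11.3 and 9.20 in CX and 0 in all 3 BS samples. The regions did not overlap, running from OB through CX and HC to BS (F-test adjusted p = 0.00185). The HC values came from 6, 3 and 3 reads, and a single read was worth 1.05, 2.003 and 2.10 units in the BS samples. The step from HC to BS therefore lies near the limit of detection. With a floor of 3 reads over the BS samples, the mean of Htr6 was at least 18.1-fold higher in OB than in BS and at least 6.58-fold higher in CX. OB against HC (adjusted p = 0.0203), OB against BS (0.000471) and CX against BS (0.0148) passed, whereas OB against CX (0.504), HC against CX (0.423) and HC against BS (0.263) did not. Htr6 lies at chr4:139061108-139075570 on the minus strand.

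Htr1f, a Gi/o-coupled receptor (chr16:64924729-65105854, minus strand), read 26.1, 21.3 and 21.5 in OB, 0.625, 0 and 0 in HC, 0 and 0 in CX and 4.21, 0 and 0 in BS. The OB samples lay close together, at 23.0 ± 2.68 (SD, n = 3), and far above every other sample, 6 of which had no read. OB exceeded HC (adjusted p = 0.00815), CX (0.0174) and BS (0.0118), and its mean was at least 11.1-fold higher than CX. The other 3 pairs did not pass, with adjusted p from 0.711 to 0.963. Without OB 1 or OB 3 the F-test call of Htr1f was lost, with adjusted p up to 0.0642.

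Other serotonin receptors were called only in OB against the pooled other regions. This comparison used thresholds modelled on the study's, an unadjusted p under 0.01, a fold over 1.5 and a deposited value above 5 in at least 2 replicates of a region, and called 8.04% of all genes tested, 4.15% as higher and 3.89% as lower in OB. It called 10 of the 28 tested receptors, 6 higher (Htr1f, Chrna3, Htr6, Htr2a, Htr7 and Chrm2) and 4 lower (Htr2c, Chrna4, Adrb1 and Chrnb1). Among those described above, the adjusted p was 0.00416 for Htr1f, 0.00247 for Htr2c, 0.0550 for Htr6 and 0.0681 for Adrb1. The study's own expression threshold is in RPM (reads scaled to library size). With more than 5 RPM, from the recovered reads, required in place of a value above 5, a choice made after seeing the data, 5 of the 10 genes stayed called (Htr2c, Htr6, Adrb1, Chrna4 and Chrnb1), and Htr1f, Chrna3, Chrm2, Htr2a and Htr7 did not exceed it in 2 replicates of a region. The OB call was also lost for Adrb1 without OB 1 and for Htr6 and Chrna3 without OB 2 or OB 3. For Chrm2 it was lost with a pseudocount of 0.25, with a replicate block and without any 1 of the HC samples, OB 2 or OB 3. Htr2a, the Gq-coupled cortical serotonin receptor, read 18.5, 18.2 and 10.8 in OB, 3.75, 0 and 0 in HC, 2.51 and 0 in CX and 0, 2.003 and 4.21 in BS. All OB samples of Htr2a lay above all others, by a log2 difference of 3.03 ± 0.79 (SE, adjusted p = 0.0428), a call that was lost without OB 1 or OB 2. Htr7 read 28.2, 3.16 and 18.3 in OB, 0, 0 and 0.734 in HC, 1.26 and 0 in CX and 0, 0 and 14.7 in BS. OB and BS overlapped for Htr7, and its unadjusted p of 0.00859 (adjusted p = 0.110) met the rule, while the F-test did not pass (adjusted p = 0.163). The OB call of Htr7 was lost in DESeq2, in edgeR, with a pseudocount of 0.25 and without BS 1, BS 2, CX 2, HC 1, HC 2, HC 3, OB 1 or OB 3.

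**Figure D5:**
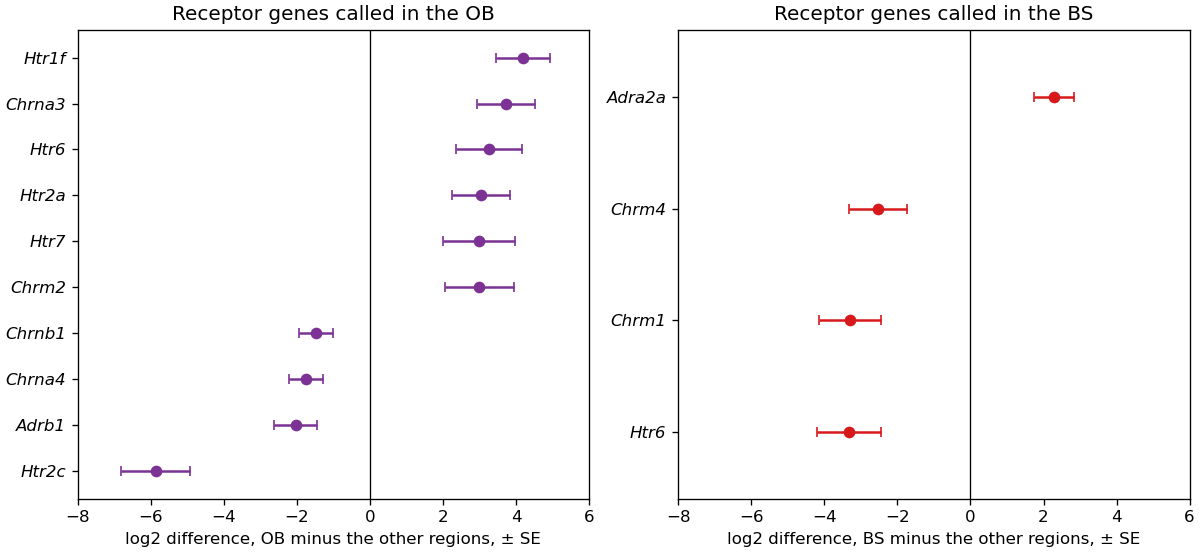
log2 difference on the log2(value + 1) scale between OB (left) or BS (right) and the pooled other regions, with SE, for the receptor genes called in that comparison. In OB, 6 genes lie to the right of 0 and 4 to the left, and in BS only Adra2a lies to the right.

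The remaining serotonin receptors were low. Htr1a, an inhibitory receptor, read at most 7.60 in OB, 22.8 in HC, 3.77 in CX and 4.21 in BS (adjusted p = 0.416). Htr5b reached 8.68 in OB 2, 10.6 in HC 1 and 19.97 in BS 1, was at 0.539 in OB 3 and had no read in the other 7 samples (adjusted p = 0.890). Htr5a was read in all 11 samples, at 0.367 to 28.4, with every region overlapping. Htr4 had 2.57 to 16.2 in HC, 1.53 in CX 2 and no read elsewhere. It was removed by the low-value filter, and without that filter it differed among regions (adjusted p = 0.0108).

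Among nicotinic receptor subunits, Chrnb4 and Chrna3, which assemble together in the ganglionic and habenular receptor, were highest in OB. These genes are neighbours on chromosome 9, at 55028154-55048779 (Chrnb4) and 55010111-55026562 (Chrna3) on the minus strand. Chrnb4 read 34.7, 107 and 66.3 in OB, 26.2, 35.6 and 21.3 in HC, 0 and 0 in CX and 23.1, 0 and 14.7 in BS. OB and HC overlapped, and CX had no read (F-test adjusted p = 0.00470). The mean of Chrnb4 was at least 33.4-fold higher in OB and at least 13.4-fold higher in HC than in CX, and CX was called lower than the pooled other regions (unadjusted p of 0.00261 and adjusted p of 0.2497), the only receptor so called, beside 2.77% of all genes called in CX and 1.74% as lower there. The call in CX was lost without either CX sample, where the sample left over is assumed to vary like the others. An antisense transcript, Gm47877, overlaps Chrnb4, and whether counting used strand is not given in the sources used here.

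Chrna3 read 6.52, 28.4 and 18.3 in OB, 4.21 in BS 3 and 0 in the other 7 samples. All OB samples lay above all others (F-test adjusted p = 0.0267), and the OB mean was at least 32.1-fold higher than HC and at least 8.57-fold higher than CX. OB against HC (adjusted p = 0.0198) and OB against BS (0.0392) passed, whereas OB against CX (0.0502) did not. The F-test call of Chrna3 was lost without OB 1 (adjusted p = 0.0520), and without OB 2 or OB 3 the gene did not pass the filter. Chrna5, the third gene of that cluster, had 8 reads and was not tested. Chrna4, the main partner of Chrnb2 in the brain, ran the other way, with 11.9, 17.4 and 4.85 in OB, 29.4, 63.0 and 43.3 in HC, 27.6 and 19.9 in CX and 64.1, 32.1 and 33.7 in BS. Every OB sample lay below all others (log2 difference -1.75 ± 0.46 against the other regions, adjusted p = 0.0459), though the F-test did not pass (adjusted p = 0.0529), and the OB call was lost without OB 3.

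Chrnb1 read 4.34, 11.1 and 4.85 in OB, 27.5, 30.1 and 16.1 in HC, 11.3 and 21.5 in CX and 17.9, 16.0 and 18.9 in BS. OB samples lay below all others, the nearest being 11.1 against 11.3, and the call rested on an unadjusted p of 0.00591 (adjusted p = 0.0898). It was lost in edgeR, without the low-value filter, against the mean of the other region means and without CX 2, HC 1, HC 2, OB 1 or OB 3. Chrnb2 read 52.1, 35.5 and 40.9 in OB and 3.67 to 27.6 in the other regions, with no overlap, but no test called it (F-test adjusted p = 0.205). Chrnb2 overlaps Adar on the opposite strand. Chrna7, the homomeric alpha-7 subunit, read 11.9, 4.74 and 1.62 in OB, 19.99, 13.7 and 11.01 in HC, 18.8 and 9.20 in CX and 23.1, 36.1 and 12.6 in BS, with overlapping regions (adjusted p = 0.230).

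Muscarinic receptors differed in 2 directions. Chrm2, a Gi/o-coupled receptor (chr6:36388084-36528414, plus strand), read 7.60, 59.2 and 13.5 in OB, 0.625, 1.83 and 0 in HC, 0 and 0 in CX and 2.10, 6.01 and 12.6 in BS. Chrm2 differed among regions (F-test adjusted p = 0.0235), with the OB mean at least 12.9-fold higher than CX. OB and BS overlapped. Both lay above HC and CX, but the lowest BS value and the highest HC value were each 2 reads. OB against HC (adjusted p = 0.0312) and OB against CX (0.0285) passed. BS against HC (0.315), BS against CX (0.118), OB against BS (0.324) and HC against CX (0.852) did not. The OB mean of 26.8 ± 28.3 (SD, n = 3) rests largely on OB 2. Without CX 1, OB 2 or OB 3 the F-test call of Chrm2 was lost, with adjusted p up to 0.107. The long noncoding RNA gene 9330158H04Rik overlaps Chrm2 on the opposite strand.

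In BS, 9.03% of all genes tested were called against the pooled other regions, 3.98% as higher and 5.05% as lower. The receptors called were Adra2a, which was higher by a log2 difference of 2.29 ± 0.55 (SE, adjusted p = 0.0270), and Chrm1, Htr6 and Chrm4, which were lower. Htr6 had a log2 difference of -3.32 ± 0.88 (SE, adjusted p = 0.0432), a call lost with a pseudocount of 5. Chrm1, a Gq-coupled receptor typical of forebrain neurons, read 36.9, 30.8 and 16.2 in OB, 41.9, 46.6 and 5.5035 in HC, 22.6 and 29.1 in CX and 0, 0 and 16.8 in BS. BS 3 overlapped OB and HC, and the difference was -3.30 ± 0.85 on the log2 scale (adjusted p = 0.0374), a call lost in edgeR and without BS 1 or BS 2. Chrm4 had no read in BS, against 2.37 to 16.7 in OB, 0.734 to 6.87 in HC and 4.5997 and 6.28 in CX (unadjusted p of 0.00685 and adjusted p of 0.0824). The call of Chrm4 was lost with a pseudocount of 5, with a replicate block and without any 1 of the BS samples, HC 1, OB 1 or OB 3. No sample of Chrm4 reached 5 RPM.

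Of the histamine receptors, Hrh1, the Gq-coupled receptor, was read in every sample, at 15.2, 71.1 and 25.3 in OB, 18.1, 53.9 and 50.3 in HC, 50.3 and 87.4 in CX and 52.6, 130.2 and 80.0 in BS. Its regions overlapped (adjusted p = 0.264). Hrh2 read 17.4, 5.53 and 15.6 in OB, 1.87, 1.83 and 0 in HC, 11.3 and 6.13 in CX and 6.31, 10.02 and 4.21 in BS. HC lay below all other samples, and Hrh2 was the only receptor called in HC (unadjusted p of 0.00341 and adjusted p of 0.632), beside 1.28% of all genes called there and 1% as lower. The call was lost in edgeR and without HC 3, OB 1 or OB 3, no sample reached 5 RPM, and antisense Gm16578 overlaps Hrh2. Hrh3 read 0.539 to 33.7 where it was read, had no read in BS 1, and overlapped between regions (adjusted p = 0.406).

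Dopamine receptors were sparse. Drd2, the only one tested, read 3.26, 1.58 and 5.93 in OB, 0 in all HC samples, 3.77 and 26.1 in CX and 2.10, 20.03 and 0 in BS. The regions overlapped, since BS 3 was at 0 like the HC samples, and the F-test did not pass (adjusted p = 0.226), though DESeq2 called it (adjusted p = 0.0313). Drd1 read 6.46 in OB 3, 9.37 and 3.30 in HC, 1.26 and 3.07 in CX and 0 elsewhere, and Drd5 was at most 11.2.

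Some neuronal transcripts were also higher in OB. Of 12 neuronal markers tested, 2 were called higher and 1 lower in OB, beside 4.15% and 3.89% of all genes tested. In BS 4 were called higher and 3 lower, beside 3.98% and 5.05%. The 2 called higher in OB were Gad1 and Gad2, the GABA-synthesis genes of bulb interneurons. Gad1 read 301 to 473 in OB and 14.6 to 67.3 in the other regions, and Gad2 302 to 391 in OB and 41.5 to 286 elsewhere. Omp, the marker of olfactory sensory neurons whose axons reach the bulb, read 98.6 to 239 in OB and at most 1.53 elsewhere, and the summed level of 8 such markers ran from 287 to 583 in OB and from 2.003 to 35.6 in the other regions. The part of these cells in the OB differences of Htr1f, Chrna3, Htr2a, Htr7, Chrm2 and Htr6 was not tested.

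Around the receptors, 70 genes of their signalling, uptake and synthesis pathways were listed, of which 57 were tested and 20 differed among regions, beside 16.5% of all genes tested. By list, these were 2 of 9 tested genes of Gq, phospholipase C and IP3 receptors, 7 of 15 of Gs, adenylyl cyclases and PDE4, 2 of 5 Gi/o subunits, 0 of 7 receptor kinases and arrestins, 4 of 6 nicotinic receptor partners, 3 of 9 genes of uptake and breakdown and 2 of 6 of synthesis and loading. Ppp1r1b, the DARPP-32 phosphatase inhibitor downstream of cyclic AMP, read 5.43 to 16.6 in OB, 272 to 353 in HC, 143 and 175 in CX and 252 to 609 in BS (adjusted p = 9.26e-07). Gnao1, the Go subunit used by Gi/o-coupled receptors, read 859 to 1368 in BS against 5396 to 13062 elsewhere (adjusted p = 1.08e-06). BS thus held the highest Adra2a and the lowest Gnao1 values, with no overlap in either.

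Lypd6, which binds nicotinic receptors, read 1104 and 1257 in CX, 58.1 to 116 in BS and 225 to 532 in OB and HC (adjusted p = 1.18e-05). Slc29a4, a low-affinity monoamine transporter also found in choroid plexus, read 3.16 to 9.77 in OB, 129 to 375 in HC, 9.20 and 21.4 in CX and 100.2 to 526 in BS (adjusted p = 2.69e-05), and only OB 1 and CX 2 broke the order of regions seen for Htr2c. Maob, which degrades monoamines in astrocytes, read 357 to 487 in OB, below the 593 to 1132 of the other regions (adjusted p = 0.000130). Itpr1 and Plcb1, of the calcium-release pathway, read 339.9 to 424 and 495 to 661 in OB, below all samples of the other regions (adjusted p = 0.000693 and 0.00113). Tmem35, a nicotinic receptor chaperone, read 123.4 to 215 in OB and 35.6 to 130.5 elsewhere (adjusted p = 0.00578). Adcy1 was lowest in OB and BS (58.7 to 198, against 465 to 1159 in HC and CX, adjusted p = 4.62e-05), Adcy8 highest in BS (179 to 455, against 55.3 to 192 elsewhere, adjusted p = 0.00781), Pde4d highest in OB and 2 BS samples (adjusted p = 0.00909) and Adcy2 highest in CX (adjusted p = 0.0124). Adcy2 values elsewhere ran from 285 to 1147.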

How the data were processed

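Total RNA of FACS-isolated Aldh1l1-eGFP astrocytes was sequenced in 11 samples (Trio RNA-Seq, NextSeq500, per the study's methods). Per the labels, the authors used FastQC, STAR 2.5.0a, mm10 and DESeq2 1.20.0, and the deposited signal is read counts divided by a size factor for each sample. The values came out as whole reads in 100% of entries (tolerance 0.1), so reads per sample were recovered. Whether counting used strand is not given in the sources used here.

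Genes passing edgeR's filterByExpr on recovered reads (13875) were fitted with limma 3.58.1 (R 4.3.3, trend) on log2(value + 1), with Benjamini-Hochberg adjustment over all genes. Log2 differences and the fold threshold are on this scale, which understates changes of low genes. Folds given as at least a value are instead the mean deposited value divided by a floor of 3 reads over the region without a read. Regions were compared by an F-test, by pairs, and each against the pooled others with thresholds modelled on the study's (deposited values in place of RPM, unadjusted p). Count tests on recovered reads were alternatives: among regions, edgeR 4.0.16 called 2073 genes (TMM factors) or 2091 (RLE), and DESeq2 1.42.0 called 3062. On simulated data with 200 changed genes, the limma fit called 82.5% of them for OB against the rest (13304 genes) and 75.5% for CX (13321 genes). The changed genes were drawn from well-read genes and given the same fixed spread. These rates therefore do not carry over to receptors with few reads. Floors of 3 reads cover counting error only.

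Named genes were the receptors called in any comparison, the 10 with the highest mean level per kb of exon (GENCODE M21) and a fixed list of 17 receptors, with Drd1a matched to Drd1, and pathway genes were at most 12 called by the F-test, lowest p first. Members and lists were chosen with earlier results of these data known. Upstream sequences are from RefSeq (GRCm38.p6). The labels do not say whether replicate numbers pair the samples, and the main fit did not pair them. Among same-numbered pairs, 3 of 15 had a correlation of deviations over 0.1 (range -0.16 to 0.25). With 2 or 3 samples per region such correlations cannot decide whether the samples are paired. A gene that these rules name is not reported here.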

Additional observations from a re-analysis of the deposited data

How the results depend on the processing

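Of the 9 receptors that differed among regions, Htr2c, Adra2a, Htr6 and Chrnb4 passed in every alternative and every fit with 1 sample left out, with adjusted p of at most 0.0288. The count was 7 in edgeR, 11 in DESeq2 and 9 with a replicate block (Adra1b lost and Adra1a gained, adjusted p = 0.0218), and 5 at an adjusted p under 0.01, where pathway genes fell from 20 to 11. Without 1 sample, the counts ran from 5 (without OB 1) to 10 for receptors among regions and from 12 to 22 for pathway genes, and from 4 (without OB 3) to 10 in OB, 0 to 3 in HC, 0 to 2 in CX and 2 to 5 in BS. OB fell to 6 without OB 2, and BS to 2 without BS 1. HC rose to 2 without CX 1 and 3 without CX 2 and fell to 0 without HC 3, OB 1 or OB 3. CX rose to 2 without HC 1 and fell to 0 without either CX sample. Pathway genes fell to 12 without OB 2 and 13 without CX 1 or OB 3. With 1 CX sample left, it is assumed to vary like the other regions.

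At an adjusted p under 0.05, the receptors called were 5 in OB, 0 in HC, 0 in CX and 3 in BS. Of all 13875 genes tested, 636 passed in OB, 0 in HC, 2 in CX and 752 in BS. In HC and CX, at an unadjusted p under 0.05, limma gave 3 and 2. The following counts return to the unadjusted p under 0.01 with the fold and value thresholds, where limma called 1 in HC and 1 in CX. HC gave 5 in DESeq2, 0 in edgeR with TMM or RLE factors, 2 without the low-value filter and 2 against the mean of the other region means. CX gave 2 in DESeq2 and 2 against that mean. Htr4 was among the HC genes added without the filter and without CX 1 or CX 2. Requiring more than 5 RPM, chosen after seeing the data, left 5 in OB, 0 in HC, 1 in CX and 3 in BS. The causes were not tested. A replicate block gave 9 in OB, 1 in HC, 1 in CX, 3 in BS and 19 pathway genes. For single genes, 166 values under other settings and 214 without 1 sample gave the same sign and call as reported, 25 and 53 lost the call, and 0 changed sign. In 45 of the 53 receptors some sample had fewer than 3 reads.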

Other observations

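Several receptors were read mainly in a single sample of a region. Chrna10 read 15.2 in OB 1 and 0.789 in OB 2, with no read in the other 9 samples. Chrna6 read 8.01 in BS 2 alone, and Chrnb3, which assembles with it in dopamine neurons, read 14.0 in BS 2 and 2.74 in HC 2. Chrna1 read 24.0 in BS 2 and at most 8.81 elsewhere, and Chrm5 read 3.15, 20.03 and 8.42 in BS against at most 4.85 elsewhere. Th, the rate-limiting enzyme of catecholamine synthesis, read 26.1, 66.3 and 13.5 in OB and 20.03 in BS 2, with at most 0.367 in the other samples. These receptors were removed by the low-value filter. Without that filter, Chrm5 was called in BS against the other regions (adjusted p = 0.0596).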
